A study of Rattus norvegicus with 12 samples.

Results

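Islets of growth-restricted Sprague Dawley rats were compared between 2 and 10 weeks of age, in separate libraries with no labelled pairing. The comparison used 6 of the 12 libraries of the series: the 3 IUGR libraries of 10-week-old rats against the 3 IUGR libraries of 2-week-old rats, as the labels assign them. IUGR stands for intrauterine growth restriction, here produced by bilateral ligation of the dam's uterine arteries at embryonic day 18. The other 6 libraries are islets of control rats of the same strain at the same ages, 3 at each, from litters reduced to 8 pups, and they enter only where the ageing of IUGR islets is set against theirs. All islets were freed with collagenase and collected on a Histopaque gradient, and total RNA without ribosomal RNA was sequenced. Neither the sex of the rats nor any pooling of animals or litters is labelled, so p-values measure only the spread between these libraries.

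Islets are small endocrine organs in which beta cells make insulin and amylin, alpha cells glucagon, delta cells somatostatin and PP cells pancreatic polypeptide, held together by a matrix and fed by a dense bed of capillaries. In rodents the weeks around weaning are those in which beta cells stop dividing at a high rate, shut off a set of housekeeping-type genes, and gain the glucose transporter, the granule proteins and the receptors by which insulin release follows blood glucose. Growth restriction before birth by uterine artery ligation is a rat model in which diabetes develops in adult life.

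The IUGR libraries held between 44042958 and 51224449 counts at 2 weeks and between 30396759 and 34963035 at 10 weeks. Levels are given as scaled CPM, the counts-per-million values taken on the library total after TMM scaling. Since transcripts differ in length, levels are compared between libraries and not between genes. The hormones of the labelled tissue were abundant: Ins1 and Ins2 together took between 4.40% and 4.82% of the counts of the 2-week libraries and between 18.6% and 20% of those of the 10-week libraries. Genes of the acinar cells, which make digestive enzymes in the surrounding pancreas, took between 4.40% and 9.42% at 2 weeks and between 0.626% and 2.34% at 10 weeks. In the control libraries the acinar share was higher, between 21.8% and 42.4% at 2 weeks and between 14.0% and 47.7% at 10 weeks. In bulk RNA such as this, fewer cells of a type and less RNA per cell cannot be told apart.

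Of 17360 gene symbols tested, each by its transcript with the highest mean count, 4710 (27.1%) were higher and 5054 (29.1%) were lower in 10-week than in 2-week IUGR islets, at an adjusted p under 0.05 in edgeR's quasi-likelihood test. These shares are the background against which each group of genes below is read. The median log2 fold change over all symbols was 0.00, with quartiles of -0.71 and 0.46. Large changes were more often decreases: 3235 symbols (18.6%) were called lower with a fold change over 2, and 1399 (8.06%) were called higher with a fold change over 2. In a test for a change above 2-fold itself, 573 symbols were higher and 1941 lower, so higher calls made up 22.8% of calls in that test and 48.2% in the main one. The groups did not overlap, with all 10-week libraries above all 2-week libraries, for 5894 symbols (34%), and in the opposite order for 6147 (35.4%). The 54 gene lists held 1608 different symbols in the table, of which 1570 were tested. The share of each list that passed in either direction is drawn in the bar plot of the lists.

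**Figure D1:**
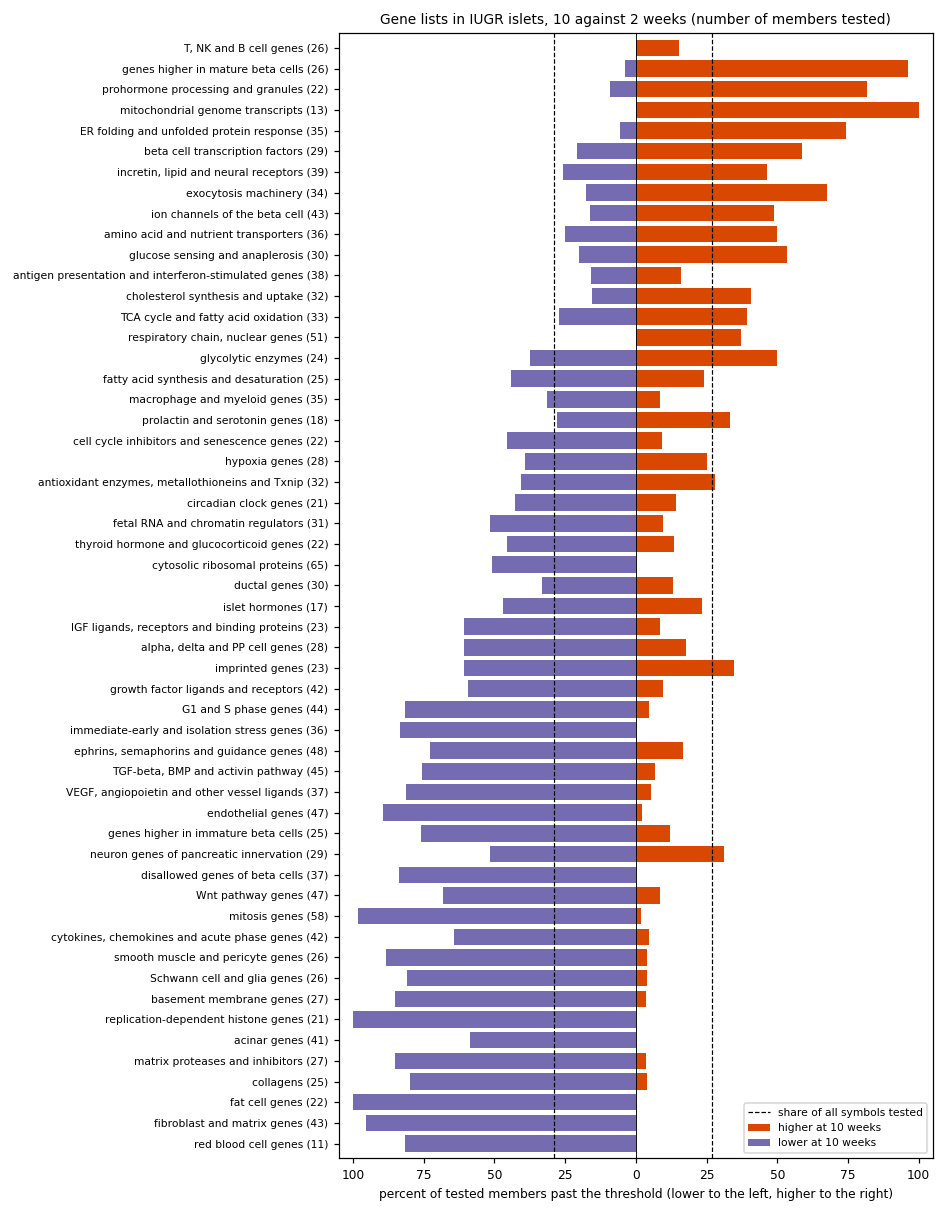
Percent of the tested members of each gene list that were higher (orange, to the right) or lower (purple, to the left) in 10-week than in 2-week IUGR islets at an adjusted p under 0.05, lists in order of their median log2 fold change, with the number of members tested in brackets. Dashed lines mark the shares among all symbols tested, 27.1% higher and 29.1% lower, and the lists of mature beta cells, granules and mitochondrial transcripts reach far past the right line, those of matrix, fat, mitosis and histones far past the left one.

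Genes of mature beta cells rose. Of 26 tested members of that list 25 were higher and 1, Rgs16, was lower, with a median log2 fold change of 2.02. For Rgs16, the adjusted p was 0.073 without 2-week IUGR replicate 2 and 0.0688 without 10-week IUGR replicate 2, with a range of 8.98e-04 to 0.073 over the alternatives. Ins2, 1 of the 2 rat insulin genes, measured 13660, 13320 and 14900 scaled CPM in 2-week replicates 1 to 3 and 69880, 64830 and 73590 at 10 weeks, a log2 fold change of 2.31 ± 0.37 (SE, adjusted p 3.19e-04). Ins1, the other insulin gene, measured 18330, 18080 and 20570 at 2 weeks and 99080, 93230 and 97040 at 10 weeks (log2 fold change 2.34 ± 0.40 SE). The 2 genes are nearly identical in sequence, so the split of reads between them is uncertain, but for each the lowest 10-week value was over 4 times the highest 2-week value. Iapp, which encodes amylin and is secreted with insulin, measured 2041, 2021 and 2312 and then 14870, 15760 and 17310 scaled CPM (log2 fold change 2.91 ± 0.33 SE). Ucn3, a peptide that marks mature beta cells and acts on neighbouring delta cells, measured 21.9, 23.3 and 26.4 and then 117, 94.2 and 98.0 (log2 fold change 2.11 ± 0.22 SE). For all 4 genes the 10-week values lay above the 2-week values without overlap, as the plot of 12 genes by library shows for Ins2 and Iapp.

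The promoters of the insulin genes are shown because the protein products of Mafa and Pdx1, whose transcripts rose, are known to act there. Sites of these proteins were not searched, and the letters in capitals do not mark them. The sequences are the 250 bases before the start, from RefSeq on the rat build GRCr8, 5′ to 3′ on the strand of the gene, with the E box letters GCCATCTG and the letters TGACGT in capitals. They stand at chr1:261185869-261186118 on the plus strand for Ins1 and at chr1:207273806-207274055 on the minus strand for Ins2.
Ins1: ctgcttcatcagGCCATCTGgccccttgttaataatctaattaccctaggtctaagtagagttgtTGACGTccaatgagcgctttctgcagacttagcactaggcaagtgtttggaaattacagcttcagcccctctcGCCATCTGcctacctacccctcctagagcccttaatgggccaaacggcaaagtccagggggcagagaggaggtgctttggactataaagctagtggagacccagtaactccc
Ins2: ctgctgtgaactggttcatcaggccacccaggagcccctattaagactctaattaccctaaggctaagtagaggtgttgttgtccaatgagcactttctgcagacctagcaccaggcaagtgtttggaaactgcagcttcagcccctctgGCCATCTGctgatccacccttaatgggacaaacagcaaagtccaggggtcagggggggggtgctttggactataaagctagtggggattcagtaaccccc
The E box letters begin 238 and 112 bases before the start in Ins1 and 100 bases before it in Ins2. Searched on both strands, they were found in 83 of the 10400 promoters of tested symbols that could be matched by a unique symbol, and the letters TGACGT, which Ins1 held 185 bases before its start, in 1062. A match of letters is a description and not a measured binding site.

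Genes of glucose sensing were more often higher than lower. Slc2a2, the glucose transporter of rodent beta cells, measured 180, 188 and 228 scaled CPM at 2 weeks and 1407, 1602 and 1942 at 10 weeks (log2 fold change 3.05 ± 0.22 SE, adjusted p 3.38e-06), and the groups did not overlap. The list of glucose sensing and anaplerosis genes had 16 members higher and 6 lower of 30, with a median of 0.41. Mdh1, a malate dehydrogenase of the cytosol, rose by 2.43 on the log2 scale, and Pc, which feeds pyruvate into the citric acid cycle, by 1.47. Me1, the malic enzyme of the cytosol, and Pfkfb2, which makes the activator of phosphofructokinase, rose by 1.46 and 1.75. Slc2a3 and Pfkfb3, which serve glucose uptake and glycolysis in other cells, went the other way with log2 fold changes of -2.08 and -1.57.

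In the list of prohormone processing and granules 18 of 22 members were higher and 2 lower, with a median of 1.53. Ptprn, a membrane protein of the dense core granule, measured 69.7, 53.4 and 61.0 scaled CPM at 2 weeks and 460, 391 and 535 at 10 weeks (log2 fold change 2.91 ± 0.24 SE). Slc30a8, the zinc transporter of the insulin granule, rose by 1.64 and Ero1lb, an oxidase that helps proinsulin fold, by 2.51, both on the log2 scale. Of 34 genes of exocytosis 23 were higher and 6 lower, with a median of 0.66. The steepest rise of that list was that of Syt4, a synaptotagmin that sets the glucose threshold of release in mature beta cells, with 33.7, 25.6 and 24.6 and then 214, 296 and 264 scaled CPM (log2 fold change 3.21 ± 0.24 SE). Snap25, Sytl4, Syt13, Unc13a and Rab3a, all parts or regulators of the fusion machinery, rose by 2.15, 2.17, 2.15, 1.84 and 1.58. Doc2b, another calcium sensor of the machinery, had a log2 fold change of -2.63.

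Among 43 ion channels 21 were higher and 7 lower, with a median of 0.55. The count of 21 was 11 with an acinar covariate and a replicate block. Kcnma1, a large-conductance potassium channel opened by calcium, measured 27.9, 27.9 and 25.6 scaled CPM at 2 weeks and 136, 122 and 143 at 10 weeks (log2 fold change 2.30 ± 0.14 SE). Trpm5, a cation channel that adds to glucose-driven electrical activity, rose by 2.86 on the log2 scale, while its relative Trpm4 fell by 2.02. Kcnj11, the pore of the ATP-sensitive potassium channel, rose by 0.93. For Kcnj11, the adjusted p was 0.0617 with an acinar covariate and 0.124 with an acinar covariate and a replicate block, with a range of 8.64e-05 to 0.124 over the alternatives. Trpa1, an irritant-sensing cation channel, was among the 15 steepest rises that the naming rule takes, with a log2 fold change of 4.77 ± 0.31 (SE).

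Of 39 tested receptors for incretins, lipids and neural signals 18 were higher and 10 lower. Prlr, the prolactin receptor, measured 9.84, 8.46 and 8.15 scaled CPM in the 2-week libraries and 108, 124 and 129 in the 10-week libraries (log2 fold change 3.77 ± 0.19 SE, adjusted p 9.32e-07). All 3 of its 10-week values were over 10 times the highest 2-week value. Receptors that raise cyclic AMP in beta cells were higher: Glp1r by 1.95, Gipr by 1.57, Gcgr, the glucagon receptor, by 2.54 and Vipr2 by 2.40. Adra2a, through which noradrenaline inhibits release, was higher too, by 2.17. Lepr, the leptin receptor, measured 12.9, 16 and 11.8 and then 2.12, 3.96 and 3.24 scaled CPM and fell by 2.13 on the log2 scale. In control islets the log2 fold change of Lepr was 1.04, and the 2 age effects differed (difference -3.17, adjusted p 0.00185). Of 18 tested prolactin and serotonin genes 6 (33.3%) were higher and 5 (27.8%) lower, near the 27.1% and 29.1% among all symbols. Tph1, the enzyme that makes serotonin in beta cells, measured 2.98, 4.76 and 3.94 scaled CPM and then 0.111, 0.224 and 0.272, a log2 fold change of -4.23 ± 0.78 (SE). Ddc, the next enzyme, and Maoa and Maob, which break serotonin down, rose by 1.74, 1.07 and 1.44.

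**Figure D2:**
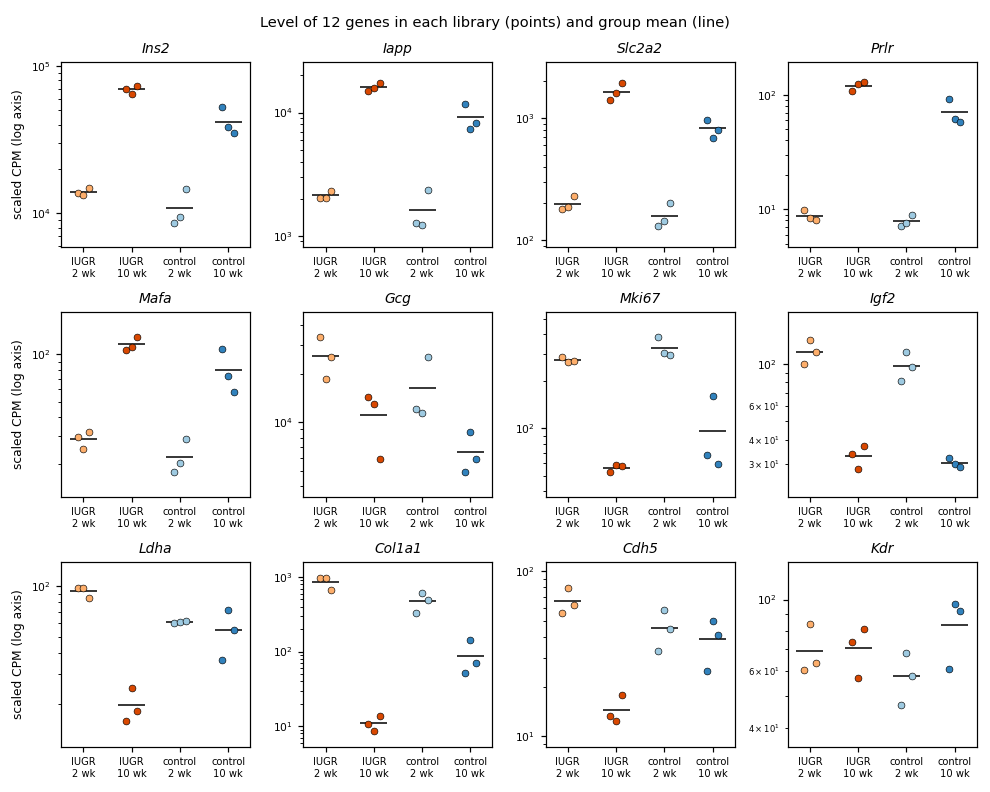
Scaled CPM on a log axis of 12 genes in each library (points) with the mean of each group of 3 (line), IUGR in orange and control in blue. The 10-week IUGR libraries lie above the 2-week IUGR libraries for Ins2, Iapp, Slc2a2, Prlr and Mafa, below them for Gcg, Mki67, Igf2, Ldha, Col1a1 and Cdh5, and among them for Kdr.

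The transcription factors of beta cell identity moved upwards. Of 29 tested 17 were higher and 6 lower, with a median log2 fold change of 0.83. Mafa, which drives insulin transcription in mature beta cells, measured 29.8, 25.1 and 32.0 scaled CPM at 2 weeks and 107, 112 and 130 at 10 weeks (log2 fold change 2.00 ± 0.24 SE). Nkx6-1, Pdx1, Neurod1 and Rfx6, all needed to keep beta cell identity, rose by 2.03, 1.3, 1.20 and 1.54. Thrb, a thyroid hormone receptor, rose by 1.29 and the other receptor gene, Thra, fell by 0.86. For Rfx6 the rise was larger in IUGR than in control islets (difference 0.95, adjusted p 0.0155). For Rfx6, the adjusted p of the difference was 0.0894 with an acinar covariate and 0.198 with an acinar covariate and a replicate block, with a range of 0.00101 to 0.198 over the alternatives.

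Genes that mature beta cells keep silent fell. Such genes are called disallowed, and the products of some would let insulin be released at the wrong time. Of 37 disallowed genes none was higher and 31 were lower, with a median of -1.67. Ldha, the subunit of lactate dehydrogenase, measured 96.6, 97.2 and 85.2 scaled CPM at 2 weeks and 15.8, 24.9 and 18.1 at 10 weeks (log2 fold change -2.25 ± 0.23 SE, adjusted p 1.94e-05). Slc16a1, the lactate and pyruvate carrier, measured 19.8, 18.4 and 19 and 3.17, 3.96 and 2.67 (log2 fold change -2.54 ± 0.26 SE). Hk1, a hexokinase with high affinity for glucose, fell by 1.61 and Rest, a repressor of neuronal and endocrine genes, by 1.92. In control islets the median of the same list was -0.29, with 2 members higher and 12 lower, where 17.3% of all symbols were higher and 15% lower in control islets. The age effects differed for 25 of the 37, all towards a steeper fall in IUGR islets, where over all symbols 1822 (10.5%) differed in that direction and 654 (3.77%) in the other. Ldha was at 61.0 scaled CPM on average in 2-week and at 54.5 in 10-week control islets, and the difference of its age effects was -2.08 (adjusted p 0.0034). The count of 25 was 13 with an acinar covariate and a replicate block. Of the 37 members 6 are also on the lists of fibroblast, matrix, vessel, nerve or fat genes described below, whose fall is of the same direction, and its part in the fall of this list was not tested.

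Genes of immature beta cells fell as well, 19 of 25 lower and 3 higher, with a median of -1.61. Igf2bp2 and Igf2bp3, RNA-binding proteins of fetal tissue, fell by 3.30 and 3.21 on the log2 scale, and Marcksl1, a protein of the cell cortex, by 2.63. Dlk1, an imprinted inhibitor of differentiation, measured 8.30, 4.75 and 10.1 scaled CPM at 2 weeks and 0.0835, 0 and 0.0494 at 10 weeks, where 1 library had no count. Sox11, a factor of embryonic progenitors, had 185 counts over the 2-week libraries and 1 count over the 10-week libraries, a ratio of 111 with an exact 95% interval from 19.6 to 4394 that covers counting error only.

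Genes of the other endocrine cells were lower or did not pass in most cases. Gcg, which encodes glucagon, measured 33720, 18600 and 25260 scaled CPM at 2 weeks and 14290, 12890 and 5874 at 10 weeks (log2 fold change -1.23 ± 0.46 SE, adjusted p 0.04). The highest 10-week value lay below the lowest 2-week value, but the spread within each age was wide. For Gcg, the adjusted p was between 0.0557 and 0.134 without each of 2-week IUGR replicate 1, 2-week IUGR replicate 3, 10-week control replicate 1, 10-week control replicate 3, 10-week IUGR replicate 2 and 10-week IUGR replicate 3. It was 0.0673 with a replicate block, 0.0679 with an acinar covariate and 0.111 with an acinar covariate and a replicate block, with a range of 0.00399 to 0.134 over the alternatives. Of 28 alpha, delta and PP cell genes 5 were higher and 17 lower, with a median of -1.16. Irx1 and Irx2, homeobox genes of alpha cells, fell by 1.59 and 1.40. Sst, somatostatin, measured 345, 223 and 280 and then 228, 345 and 267 scaled CPM and Ppy, pancreatic polypeptide, 489, 499 and 463 and then 679, 714 and 475. Neither passed (log2 fold changes -0.01 ± 0.24 and 0.36 ± 0.30 SE). Gria2, a glutamate receptor subunit listed for alpha cells, rose by 2.23. Ghrl, which encodes ghrelin, fell by 1.28. Among other peptides, Penk, the enkephalin precursor, measured 8.22, 9.64 and 10.9 and then 0.585, 0.548 and 0.148 scaled CPM, and its fall was steeper than in control islets (log2 fold changes -4.49 and -2.13, adjusted p of the difference 0.0169). For Penk, the adjusted p of the difference was 0.0828 with an acinar covariate and a replicate block, with a range of 1.66e-04 to 0.0828 over the alternatives.

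Cell division genes fell. Of 58 mitosis genes 57 were lower and 1, Zwint, was higher, with a median log2 fold change of -1.89. For Zwint, the adjusted p was 0.0688 with an acinar covariate and a replicate block, with a range of 2.98e-04 to 0.0688 over the alternatives. Mki67, the proliferation marker Ki-67, measured 287, 265 and 268 scaled CPM at 2 weeks and 52.7, 58.3 and 57.8 at 10 weeks (log2 fold change -2.28 ± 0.32 SE, adjusted p 1.35e-04). Anln, a scaffold of the cleavage furrow, measured 40.6, 38.8 and 38.4 and 6.29, 7.40 and 8.45 (log2 fold change -2.41 ± 0.15 SE). Cdk1, the mitotic kinase, and its partner Ccnb2 fell by 2.19 and 2.13, and Cdc20, which starts anaphase, by 2.04. All 21 tested histone genes that are made only in S phase were lower, with a median of -2.05, although members of this family are close copies and their counts may be shared. Of 44 genes of G1 and S phase 36 were lower and 2 higher, with a median of -1.33. The 2 that rose were Ccnd1 and Ccnd2, the D cyclins of islets, with 79.5, 87.8 and 88.4 and then 134, 107 and 190 scaled CPM for Ccnd1 and 111, 102 and 108 and then 201, 178 and 171 for Ccnd2 (log2 fold changes 0.75 ± 0.18 and 0.78 ± 0.15 SE). For Ccnd1, the adjusted p was 0.0799 with an acinar covariate and 0.178 with an acinar covariate and a replicate block, with a range of 2.29e-04 to 0.178 over the alternatives. E2f1, the factor that opens S phase, fell by 2.15, and Brca1, of DNA repair, by 1.48. In control islets 56 of the 58 mitosis genes were lower with a median of -1.48, and the age effects differed for 2, Anln towards a steeper fall in IUGR islets and Zwint the other way. Differences towards a steeper fall numbered 20 with an acinar covariate, 4 with the covariate and a replicate block, and 41 without the 3 control libraries with an acinar share above 40%, against 1 in the main test, and 0 to 2 when any single library was left out. For the 21 histone genes there were none in the main test, 3 with the covariate and 14 without those 3 libraries, and for the 44 genes of G1 and S phase 3, 3 and 20. Of 22 tested cell cycle inhibitors and senescence genes 2 (9.09%) were higher and 10 (45.5%) lower. Of the inhibitors of division, Cdkn1c, an imprinted gene, measured 8.42, 9.36 and 10.0 and then 0.640, 0.423 and 0.346 scaled CPM, a fall of 4.30 on the log2 scale. Cdkn1a fell by 1.61 in IUGR islets where its log2 fold change was 0.45 in control islets (difference -2.06, adjusted p 0.00225). Cdkn2b, which rises with age in many tissues, rose by 1.47.

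The cell cycle homology region TTTGAA and the CCAAT box are known to lie side by side in promoters of genes that peak in mitosis. Below are the 120 bases before the start of 4 mitosis genes, from RefSeq on GRCr8, 5′ to 3′ on the strand of the gene, with both sets of letters in capitals on either strand (CCAAT reads ATTGG and TTTGAA reads TTCAAA on the other). They are chr20:19265173-19265292 (plus strand) for Cdk1, chr8:79981659-79981778 (minus) for Ccnb2, chr5:137255800-137255919 (minus) for Cdc20 and chr13:53625464-53625583 (plus) for Aspm, a spindle protein.
Cdk1: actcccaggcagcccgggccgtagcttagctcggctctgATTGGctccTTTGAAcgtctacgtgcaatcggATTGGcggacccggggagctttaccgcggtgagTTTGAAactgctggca
Ccnb2: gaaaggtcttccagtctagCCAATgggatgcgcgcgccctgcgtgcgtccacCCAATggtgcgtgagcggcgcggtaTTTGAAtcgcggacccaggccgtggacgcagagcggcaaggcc
Cdc20: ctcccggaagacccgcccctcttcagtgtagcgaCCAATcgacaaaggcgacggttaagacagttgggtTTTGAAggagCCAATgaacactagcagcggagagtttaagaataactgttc
Aspm: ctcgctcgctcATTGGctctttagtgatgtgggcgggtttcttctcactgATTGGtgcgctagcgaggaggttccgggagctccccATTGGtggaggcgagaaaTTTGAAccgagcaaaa
In the 250 bases before the start, TTTGAA was found in 24 of the 46 mitosis promoters at hand (52.2%) against 10.6% of the 10400 promoters of all tested symbols, and CCAAT in 35 (76.1%) against 34.8%. Among the 30 promoters of G1 and S phase genes TTTGAA was found in 3.33%, and the E2F letters TTTGGCGC in 16.7% against 0.712% of all. A second set of E2F letters, TTCCCGCC, was in 13.3% of them against 2.96% of all. CCAAT was not particular to mitosis promoters. It was in 56.7% of G1 and S phase promoters and 73.1% of those of the ER folding genes described below. In the other lists searched it ranged from 18.8% for collagens to 50% for mature beta cell genes. The following 150 bases of Mcm6, a subunit of the replicative helicase (chr13:42404353-42404502, minus strand), and of Gins1, a replication factor (chr3:160184770-160184919, plus strand), hold TTTGGCGC in capitals. In Gins1 a match on each strand overlaps the other.
Mcm6: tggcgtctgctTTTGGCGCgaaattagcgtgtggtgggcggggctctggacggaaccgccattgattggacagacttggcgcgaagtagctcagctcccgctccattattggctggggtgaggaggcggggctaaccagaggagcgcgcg
Gins1: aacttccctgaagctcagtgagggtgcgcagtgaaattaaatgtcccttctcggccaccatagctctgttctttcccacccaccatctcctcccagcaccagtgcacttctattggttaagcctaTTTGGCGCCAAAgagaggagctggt
Mcm6 fell by 1.49 and Gins1 by 2.39 on the log2 scale. Over all promoters, of 1102 symbols with TTTGAA 298 were higher and 345 lower, and of 74 with TTTGGCGC 18 were higher and 19 lower.

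The folding machinery of the endoplasmic reticulum (ER), through which all proinsulin passes, rose. Of 35 genes of ER folding and the unfolded protein response 26 were higher and 2 lower, with a median of 1.09. Dnajb9, a co-chaperone, measured 52.6, 38.1 and 46.1 scaled CPM at 2 weeks and 188, 220 and 220 at 10 weeks (log2 fold change 2.20 ± 0.15 SE, adjusted p 2.86e-06). Hyou1, a chaperone of the ER lumen, measured 302, 270 and 316 and 1074, 994 and 1198 (log2 fold change 1.88 ± 0.19 SE). Hspa5, known as BiP, and Hsp90b1 rose by 1.47 and 1.34, and Manf, a secreted ER protein that beta cells need, by 1.47. The 2 members that fell were Atf3 and Ppp1r15a, stress genes that respond quickly to many stimuli, by 2.26 and 1.58. The factors that switch the response on were less uniform: Atf6 and Ern1 rose by 0.45 and 0.84, while Xbp1 and Ddit3 had log2 fold changes of 0.36 and -0.02 that did not pass. For Xbp1, the adjusted p was 0.0329 with the 6 IUGR libraries alone, 7.19e-04 with an acinar covariate, 0.00299 with an acinar covariate and a replicate block and 0.0346 without the 3 control libraries with an acinar share above 40%, with a range of 7.19e-04 to 0.623 over the alternatives. Xbp1 counts do not tell its spliced from its unspliced form.

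The ER stress element, CCAAT followed by any 9 bases and CCACG, is the known site of the response in these promoters. The 150 bases before the start of 4 members that rose are shown with its fixed letters in capitals on either strand (the other strand reads CGTGG and ATTGG), from RefSeq on GRCr8. They are chr3:38452866-38453015 (plus strand) for Hspa5, chr7:23012294-23012443 (minus) for Hsp90b1, chr15:102432517-102432666 (plus) for Dnajc3, a co-chaperone, and chr7:121789234-121789383 (plus) for Creld2.
Hspa5: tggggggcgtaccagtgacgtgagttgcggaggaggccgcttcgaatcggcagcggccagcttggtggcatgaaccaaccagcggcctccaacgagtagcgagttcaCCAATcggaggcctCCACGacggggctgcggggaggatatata
Hsp90b1: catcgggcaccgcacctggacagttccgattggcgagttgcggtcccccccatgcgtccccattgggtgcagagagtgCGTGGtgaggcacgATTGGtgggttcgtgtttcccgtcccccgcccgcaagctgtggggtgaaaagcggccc
Dnajc3: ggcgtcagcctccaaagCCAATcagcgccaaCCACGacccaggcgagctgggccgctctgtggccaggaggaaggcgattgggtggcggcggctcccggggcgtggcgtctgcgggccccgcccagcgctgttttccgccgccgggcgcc
Creld2: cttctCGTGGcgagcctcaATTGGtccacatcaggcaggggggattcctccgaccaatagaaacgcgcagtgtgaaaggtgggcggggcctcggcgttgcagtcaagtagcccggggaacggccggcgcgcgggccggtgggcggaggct
The element was found in 7 of the 26 ER promoters at hand (26.9%) and in 14 of all 10400 (0.135%). It stands in the Xbp1 promoter too. Of those 14 symbols 10 were higher, 1 was lower and 3 did not pass, with a median log2 fold change of 0.79 against 0.00 over all 10400. Since 7 of the 14 are members of the list, the 2 counts are not independent.

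Transcripts of the mitochondrial genome rose, and most nuclear genes of the respiratory chain did not pass. All 13 tested genes of the mitochondrial genome were higher, with a median of 1.37, and their share of counts went from between 0.807% and 0.899% to between 1.49% and 1.61%. Mt-nd6, the subunit encoded on the light strand, measured 21.6, 22.9 and 20.5 scaled CPM and then 78.6, 63.2 and 95.5 (log2 fold change 1.87 ± 0.17 SE). The age effects differed for 6 of the 13, towards a larger rise in IUGR islets. The count of 6 was 2 without 2-week IUGR replicate 1, 3 without 2-week IUGR replicate 3, 10 without 10-week control replicate 1, 3 without 10-week IUGR replicate 3, 1 with an acinar covariate, 1 with an acinar covariate and a replicate block and 3 without the 3 control libraries with an acinar share above 40%. Of 51 nuclear genes of the respiratory chain and its regulators 19 were higher and none was lower, with a median of 0.13. The count of 19 was 11 without 2-week IUGR replicate 2 and 12 without 10-week IUGR replicate 2. Ppargc1a, a coactivator of mitochondrial biogenesis, and Tfam, a transcription factor of the mitochondrial genome, rose by 1.28 and 0.68. For Ppargc1a, the adjusted p was 0.118 with an acinar covariate and 0.151 with an acinar covariate and a replicate block, with a range of 7.59e-04 to 0.151 over the alternatives. Of 24 glycolytic genes 12 were higher and 9 lower. The count of 12 was 6 with an acinar covariate and 5 with an acinar covariate and a replicate block. Pkm, the last enzyme of the payoff phase, rose by 1.42 and Ldhb fell by 1.42. Hadh, an enzyme of fatty acid oxidation that restrains insulin release, rose by 1.71. Cpt1a, the entry step of fatty acids into mitochondria, fell by 0.82.

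Igf2, an imprinted growth factor, measured 100, 133 and 115 scaled CPM at 2 weeks and 33.7, 28.3 and 37.2 at 10 weeks (log2 fold change -1.81 ± 0.15 SE, adjusted p 6.59e-06). In control islets its log2 fold change was -1.69, and a difference of -0.12 between the age effects did not pass (adjusted p 0.74). Grb10, an imprinted adaptor that restrains insulin signalling, measured 100, 104 and 107 and 11.8, 9.09 and 8.30 (log2 fold change -3.41 ± 0.18 SE), and its fall was steeper than the -1.85 of control islets (difference -1.56, adjusted p 0.00359). Of 23 tested imprinted genes 14 were lower and 8 higher. Mest fell by 2.08, while Snrpn, a splicing protein, rose by 1.38 and Peg3 by 1.11. Of 23 IGF ligands, receptors and binding proteins 14 were lower and 2 higher, with a median of -1.03. The count of 2 was 4 without 10-week control replicate 2, 4 without 10-week control replicate 3 and 1 with an acinar covariate and a replicate block. Igfbp6, a binding protein of IGF, measured 24.9, 29.6 and 22.4 and then 0.278, 0.498 and 0.346 scaled CPM (log2 fold change -6.08 ± 0.52 SE). Igfbp2, Igfbp5 and Igfbp4 fell by 5.63, 3.19 and 2.58. In control islets Igfbp5 and Igfbp4 had log2 fold changes of 0.26 and -0.24, and for both the age effects differed (adjusted p 0.00235 and 0.00166).

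Matrix genes fell. Of 43 fibroblast and matrix genes 41 were lower and none was higher, with a median of -2.94, and of 25 collagens 20 were lower and 1 higher, with a median of -2.70. Col1a1, a chain of fibrillar collagen, measured 955, 963 and 669 scaled CPM in the 2-week libraries and 10.5, 8.69 and 13.7 in the 10-week libraries (log2 fold change -6.29 ± 0.45 SE, adjusted p 3.10e-06). Col3a1 measured 7493, 6720 and 6396 and 191, 195 and 244 (log2 fold change -5.03 ± 0.37 SE), and Eln, elastin, 1996, 1762 and 1591 and 57.8, 66.6 and 93.0 (log2 fold change -4.62 ± 0.26 SE). The lowest 2-week value of each of the 3 was over 15 times its highest 10-week value. Fbn2, a fibrillin of developing tissue, and Lox, which crosslinks collagen, fell by 3.41 and 2.52. Dcn and Lum, proteoglycans that mark fibroblasts, and Pdgfra, their growth factor receptor, fell by 3.24, 3.95 and 2.61. Of 27 basement membrane genes 23 were lower and 1 was higher, with a median of -2.0. Its 1 rise was Itga3, an integrin. For Itga3, the adjusted p was between 0.0535 and 0.0716 without each of 2-week IUGR replicate 3, 10-week IUGR replicate 1 and 10-week IUGR replicate 3. It was 0.232 with an acinar covariate and 0.431 with an acinar covariate and a replicate block, with a range of 0.00635 to 0.431 over the alternatives. Of 27 matrix proteases and inhibitors 23 were lower and 1 was higher. Mmp2 fell by 3.92 and Timp2 by 2.56. The 1 that rose was Mmp12, a protease of macrophages, with 0.354, 0.590 and 0.384 and then 3.95, 5.33 and 3.88 scaled CPM (log2 fold change 3.30 ± 0.25 SE). Control islets lost matrix too, with a median of -0.92 in the fibroblast list, but the age effects differed for 37 of the 43 members, each towards a steeper fall in IUGR islets. For Col1a1 the log2 fold change was -2.44 in control islets (difference -3.85, adjusted p 0.00241). Without the 3 control libraries with an acinar share above 40% the count was 37 of 43 as well.

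Fat cell genes fell in all 22 tested cases, with a median of -2.87. Adipoq, adiponectin, measured 23.2, 23.6 and 26.1 scaled CPM at 2 weeks and 0.139, 0.299 and 0.222 at 10 weeks (log2 fold change -6.75 ± 0.68 SE). Car3, a carbonic anhydrase abundant in fat and muscle, had the largest fall of all symbols the naming rule takes, from 107, 96.9 and 102 to 0.0835, 0.0249 and 0.0988 scaled CPM (log2 fold change -10.48 ± 1.35 SE, adjusted p 8.44e-05). Retn, resistin, had 598 counts over the 2-week libraries and 2 over the 10-week libraries, a ratio of 179 (exact 95% interval 49.3 to 1480). Cma1, a chymase of mast cells, measured 38.9, 62.9 and 61.5 and then 0.0278, 0.672 and 0.420, and Cpa3, a mast cell carboxypeptidase, 65.0, 91.1 and 91.4 and then 0.251, 1.20 and 0.840. Red blood cell genes were lower in 9 of 11 cases. Alas2, which makes haem in red cell precursors, fell by 3.00, and Hbb by 3.14, although globin genes are close copies of each other.

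Vessel genes fell unevenly. Of 47 endothelial genes 42 were lower and 1 higher, with a median of -1.55. Cdh5, the cadherin of endothelial junctions, measured 56.2, 79.8 and 62.4 scaled CPM at 2 weeks and 13.2, 12.3 and 17.7 at 10 weeks (log2 fold change -2.20 ± 0.28 SE, adjusted p 8.16e-05). Pecam1, a surface marker of all endothelium, measured 168, 201 and 168 and 52.8, 68.3 and 66.2 (log2 fold change -1.52 ± 0.27 SE), and Cldn5, a tight junction protein, 21.4, 24.6 and 24.1 and 0.974, 1.94 and 1.36 (log2 fold change -4.03 ± 0.37 SE). In none of the 3 did the groups overlap. By contrast Kdr, the main receptor for VEGF, measured 60.6, 83.9 and 63.3 and then 73.6, 57.2 and 80.9, with interleaved groups and a log2 fold change of 0.03 ± 0.21 (SE, adjusted p 0.925). Plvap, which forms the diaphragms of fenestrated capillaries, fell by 0.82. Flt1, another VEGF receptor, had a log2 fold change of 0.39 that did not pass, and Esm1, a secreted protein of sprouting endothelium that VEGF induces, rose by 1.38. Vegfa, the VEGF that islet cells make, measured 124, 124 and 131 and then 298, 257 and 313 scaled CPM (log2 fold change 1.19 ± 0.13 SE), a larger rise than in control islets (difference 0.75, adjusted p 0.0182). For Vegfa, the adjusted p of the difference was 0.0942 with an acinar covariate and 0.199 with an acinar covariate and a replicate block, with a range of 9.16e-04 to 0.199 over the alternatives. Of 37 vessel ligands and their partners 30 were lower and 2 higher. The count of 2 was 1 with an acinar covariate and 1 with an acinar covariate and a replicate block. Angpt2, which destabilises vessels, fell by 3.07 and Jag1, a Notch ligand, by 2.70. Aplnr and its ligand Apln, active in growing vessels, fell by 2.93 and 3.38.

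Of 26 tested muscle and pericyte genes 23 were lower and 1 higher, with a median of -1.93. Tpm2, a tropomyosin, and Mylk, the light chain kinase of smooth muscle, fell by 2.39 and 2.03. Rgs5, the usual marker of pericytes, had a log2 fold change of 0.17 that did not pass, and Higd1b, another pericyte gene, rose by 0.77, as the plot of vessel genes shows. For Higd1b, the adjusted p was between 0.0743 and 0.0956 without each of 2-week IUGR replicate 2, 2-week IUGR replicate 3 and 10-week IUGR replicate 3. It was 0.39 with an acinar covariate and 0.469 with an acinar covariate and a replicate block, with a range of 0.00757 to 0.469 over the alternatives. The age effects differed for 35 of 47 endothelial and 14 of 26 muscle and pericyte genes, each time towards a steeper fall in IUGR islets, and the control medians were -0.21 and -0.40. The count of 35 was 20 without 2-week IUGR replicate 2, 22 without 10-week control replicate 2, 19 without 10-week control replicate 3, 23 without 10-week IUGR replicate 1 and 23 without 10-week IUGR replicate 2. The count of 14 was 9 without 2-week IUGR replicate 1, 9 without 2-week IUGR replicate 2, 9 without 10-week IUGR replicate 1 and 9 without 10-week IUGR replicate 2.

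**Figure D3:**
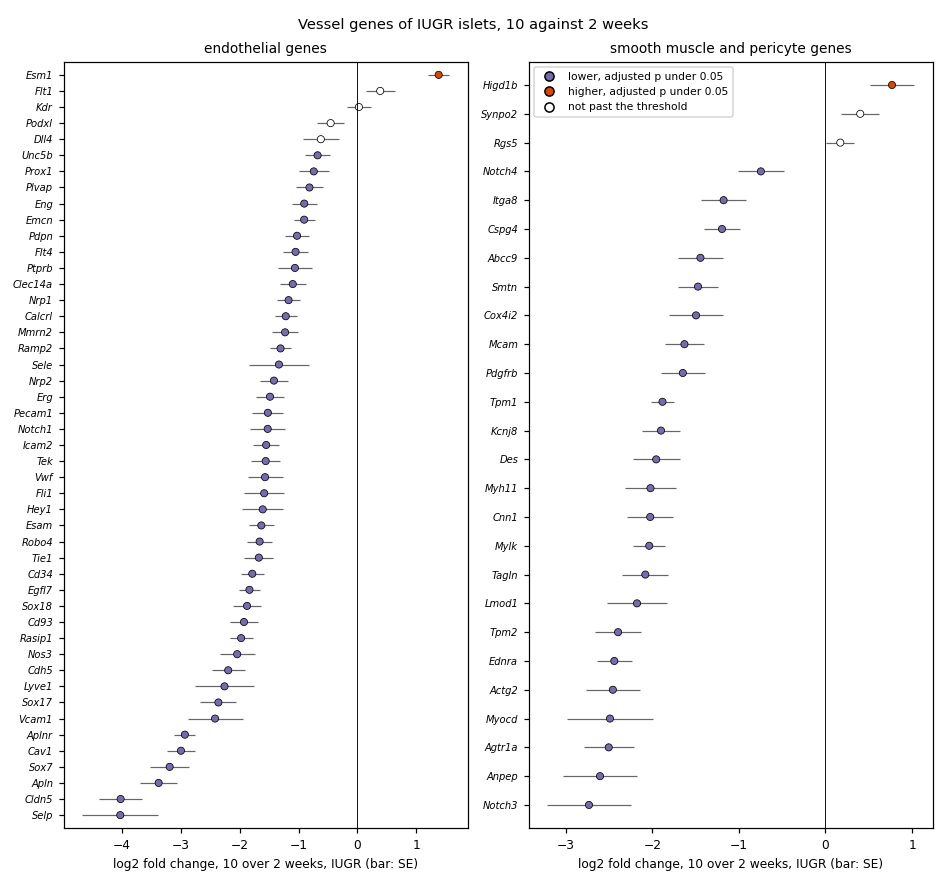
Log2 fold change of every tested endothelial gene (left) and every tested smooth muscle or pericyte gene (right) in 10-week over 2-week IUGR islets, with its standard error (bar). Purple points were lower, orange points higher and white points not past an adjusted p of 0.05. Of the 47 endothelial and 26 muscle or pericyte genes, 42 and 23 were lower, while Kdr, Flt1, Rgs5 and Synpo2 stay near 0 and Esm1 and Higd1b lie above it.

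Nerve genes were lower more often than all symbols were, and glial genes fell. Of 29 neuron genes 15 (51.7%) were lower and 9 (31%) higher, where the shares among all symbols were 29.1% and 27.1%. The share that was higher was thus near that of all symbols. Prph, peripherin, an intermediate filament of peripheral neurons, measured 16.9, 16.1 and 17.9 scaled CPM and then 0.696, 0.872 and 1.01 (log2 fold change -4.29 ± 0.47 SE). Nefl, the light neurofilament, measured 13.7, 12.7 and 12.6 and then 0.362, 0.199 and 0.296 (log2 fold change -5.50 ± 0.65 SE), and in control islets its log2 fold change was 0.53 (difference -6.03, adjusted p 0.00245). Th, which makes catecholamines, fell by 2.61 from levels under 1 scaled CPM. Chrnb4, a subunit of ganglionic acetylcholine receptors, had 51 counts at 2 weeks and 1 at 10 weeks, a ratio of 30.5 (exact 95% interval 5.23 to 1228). Map2, Nefh and Elavl4, neuronal genes that islet endocrine cells also express, rose by 1.98, 1.84 and 1.68. Of 26 Schwann cell and glia genes 21 were lower and 1 was higher. Pmp22, a myelin protein, fell by 3.70, S100b by 3.48 and Sox10, which specifies glia, by 3.25. The age effects differed for 14 of the 26, towards a steeper fall in IUGR islets. The count of 14 was 7 without 2-week control replicate 1, 6 without 2-week control replicate 3, 5 without 2-week IUGR replicate 1, 7 without 2-week IUGR replicate 2, 8 without 2-week IUGR replicate 3, 7 without 10-week control replicate 2, 8 without 10-week IUGR replicate 1, 7 without 10-week IUGR replicate 2 and 7 without 10-week IUGR replicate 3.

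Most immediate-early genes and most cytokine, chemokine and acute phase genes were lower at 10 weeks. Of 36 immediate-early genes, which are switched on within minutes of a stimulus and by tissue dissociation, 30 were lower and none was higher, with a median of -1.37, against 0.35 in control islets, where 4 were higher and 1 lower. The age effects differed for 26 of the 36. Myc, a growth regulator, measured 14.3, 18.2 and 12.1 scaled CPM and then 2.28, 3.91 and 3.36 (log2 fold change -2.22 ± 0.28 SE), and -0.01 was its log2 fold change in control islets (adjusted p of the difference 0.00586). For Myc, the adjusted p of the difference was 0.0913 with an acinar covariate and a replicate block, with a range of 1.83e-06 to 0.0913 over the alternatives. Ier3 measured 87.0, 110 and 70.8 and then 9.49, 11.8 and 13.9 (log2 fold change -2.93 ± 0.42 SE). In Myc and Ier3, as in Fosl2 and Egr2, replicate 2 was the highest of the 2-week libraries. Of 42 cytokines, chemokines and acute phase genes 27 were lower and 2 higher. Cxcl1, a chemokine for neutrophils, measured 236, 217 and 142 and then 4.76, 3.81 and 11.3 scaled CPM (log2 fold change -4.91 ± 0.70 SE), and Il6 17.2, 27.3 and 10.9 and then 0.445, 0.672 and 2.00 (log2 fold change -4.13 ± 0.76 SE). Socs3, which cytokines induce, fell by 3.41. The 2 that rose were Il18 and Il1r1, the receptor for interleukin 1 that beta cells carry, which measured 44.9, 58.4 and 40.8 and then 162, 200 and 185 (log2 fold change 1.92 ± 0.19 SE). The age effects of this list differed for 24 of 42 genes, with a control median of 0.27. The count of 24 was 13 without 2-week IUGR replicate 1, 12 without 2-week IUGR replicate 2, 13 without 10-week control replicate 3, 15 without 10-week IUGR replicate 2 and 12 with an acinar covariate and a replicate block. Cxcl3 had 38 counts at 2 weeks and none at 10 weeks, and against a floor of 3 counts per library it was at least 2.49-fold lower. Of 38 genes of antigen presentation and interferon response 6 were higher and 6 lower, shares under those among all symbols, with a median of 0.28 and a control median of 1.41. The count of higher members was 11 without 10-week control replicate 1, 10 without 10-week control replicate 2, 3 without 10-week IUGR replicate 2, 10 in DESeq2, 11 with the 6 IUGR libraries alone, 2 with an acinar covariate and 3 with an acinar covariate and a replicate block. The count of lower members was 10 without the 3 control libraries with an acinar share above 40%. Irf1, an interferon response factor, fell by 2.54.

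Of 35 tested macrophage and myeloid genes 3 (8.57%) were higher and 11 (31.4%) lower, with a median of -0.08 and a control median of 1.13. The share that was lower was near the 29.1% among all symbols. The count of 11 was 7 without 2-week IUGR replicate 1, 6 without 10-week IUGR replicate 1, 7 without 10-week IUGR replicate 2 and 7 with an acinar covariate and a replicate block. Mrc1, the mannose receptor, and Cd163 fell by 2.42 and 2.34. For Cd163, the adjusted p was 0.0505 with an acinar covariate and a replicate block, with a range of 3.13e-05 to 0.0505 over the alternatives. Itgax and Fcgr3a rose by 1.97 and 2.83. The complement genes C1qa, C1qb and C1qc and the receptor gene Csf1r, all expressed by macrophages, had log2 fold changes of 0.14, -0.08, 0.09 and -0.23, and none of them passed. Genes of T, NK and B cells had the highest median of all lists, 2.07, and only 4 of 26 passed. Cr2, a complement receptor of B cells, measured 0.652, 1.09 and 0.868 scaled CPM and then 5.09, 61.0 and 13.2, with 10-week replicate 2 far above the others (adjusted p 0.027). For Cr2, the adjusted p was between 0.0724 and 0.109 without each of 2-week IUGR replicate 1, 2-week IUGR replicate 2, 2-week IUGR replicate 3 and 10-week IUGR replicate 2. It was 0.0711 with no filter on low counts, 0.2 with an acinar covariate and 0.067 with an acinar covariate and a replicate block, with a range of 0.00286 to 0.2 over the alternatives. Glycam1, a mucin of the vessels through which lymphocytes enter nodes, had the largest rise of the symbols that the naming rule takes, from 0.850, 0.652 and 0.969 to 71.6, 26.5 and 23.0 scaled CPM (log2 fold change 5.61 ± 1.72 SE, adjusted p 0.0164). For Glycam1, the adjusted p was between 0.0516 and 0.0586 without each of 2-week IUGR replicate 1, 2-week IUGR replicate 2 and 2-week IUGR replicate 3. It was 0.309 with an acinar covariate and 0.4 with an acinar covariate and a replicate block, with a range of 2.04e-04 to 0.4 over the alternatives. The count of 4 was 7 without 2-week control replicate 2, 13 without 10-week control replicate 1, 21 without 10-week control replicate 2, 10 without 10-week control replicate 3, 7 without 10-week IUGR replicate 1, 12 in DESeq2, 16 with the 6 IUGR libraries alone, 18 with a replicate block, 2 with an acinar covariate and 17 without the 3 control libraries with an acinar share above 40%.

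Of 47 Wnt genes 32 were lower and 4 higher, and of 45 genes of TGF-beta, BMP and activin signalling 34 were lower and 3 higher, with medians of -1.72 and -1.44. Fzd1, a Wnt receptor, measured 24.3, 23.8 and 24.1 scaled CPM and then 2.42, 2.49 and 2.69 (log2 fold change -3.25 ± 0.14 SE, adjusted p 5.28e-07). Wnt5a, a Wnt ligand of mesenchyme, fell by 2.84, and Wnt4, the Wnt of adult endocrine cells, rose by 1.83. Wnt3, which the list does not hold, was among the steepest rises, with 1.73, 1.78 and 1.84 and then 25.4, 10.9 and 18.0 scaled CPM. Wnt2 had 28 counts over the 2-week libraries and Nog, a BMP antagonist, 47, and both had none over the 10-week libraries, at least 1.83-fold and 3.11-fold lower against the floor of 3 counts per library. With such genes set to their bounds the median of the Wnt list was -1.40 and that of the TGF-beta list -1.44. For Wnt2, the adjusted p of edgeR's test was between 0.054 and 0.0752 without 2-week IUGR replicate 1 or 2 or any single 10-week IUGR library. It was 0.106 with an acinar covariate and a replicate block, with a range of 0.0076 to 0.106 over the alternatives. Bmp4 measured 11.6, 10.8 and 10.0 and then 1.03, 1.07 and 0.988 (log2 fold change -3.38 ± 0.30 SE), and Id2 and Id4, which BMPs induce, fell by 1.77 and 3.27. The age effects differed towards a steeper fall in IUGR islets for 16 of the 47 Wnt genes and 20 of the 45, and the other way for 1 Wnt gene. The count of 16 was 10 without 2-week IUGR replicate 1 and 10 with an acinar covariate and a replicate block. Of 48 ephrin, semaphorin and guidance genes 35 were lower and 8 higher, among them Epha3, which fell by 4.67, and Epha5, which rose by 1.94. Of 42 growth factor ligands and receptors 25 were lower and 4 higher. The count of 4 was 2 without 2-week IUGR replicate 2, 2 without 2-week IUGR replicate 3, 2 without 10-week IUGR replicate 1 and 2 without 10-week IUGR replicate 3. Mdk, midkine, fell by 3.52 and Fgfr1 by 2.03, while Fgf9 and Ntrk2, the receptor for BDNF, rose by 1.94 and 1.53.

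Of 41 acinar genes 24 were lower and none was higher, with a median of -2.25. Rbpjl, a factor of the acinar cell, measured 26.7, 28.1 and 52.3 scaled CPM and then 2.20, 2.32 and 0.964 (log2 fold change -4.29 ± 0.72 SE), and Prss1, a trypsinogen with close copies, 1302, 1001 and 2745 and then 837, 1059 and 398, with overlapping groups (log2 fold change -1.14 ± 0.74 SE, adjusted p 0.211). For Prss1 an acinar covariate gave 0.98 (adjusted p 0.0254). The count of 24 was 14 with an acinar covariate and 9 with an acinar covariate and a replicate block. That covariate was the mean log2 CPM of the acinar genes themselves. Genes of this list were thus adjusted for their own mean, and these values cannot test their fall. Of 30 ductal genes 4 were higher and 10 lower. The count of 10 was 16 without 10-week IUGR replicate 1 and 6 with an acinar covariate and a replicate block. Krt19, the usual ductal marker, measured 14.1, 13.9 and 22.2 and then 28.8, 17.3 and 13.4 and did not pass, and Cftr, the chloride channel of ducts, had a log2 fold change of -0.15 that did not pass either. Cldn1, a claudin on that list, fell by 4.89.

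Of 65 cytosolic ribosomal protein genes 33 were lower and none was higher, with a median of -0.39 and no change over 2-fold. The count of 33 was 21 without 2-week IUGR replicate 3, 17 without 10-week IUGR replicate 1, 18 without 10-week IUGR replicate 3, 2 with an acinar covariate and 1 with an acinar covariate and a replicate block. Of 33 genes of the citric acid cycle and fatty acid oxidation 13 were higher and 9 lower, of 36 amino acid and nutrient transporters 18 and 9, and of 22 thyroid hormone and glucocorticoid genes 3 and 10. Of 17 hormone genes of the islet 4 were higher and 8 lower. With the 20 most abundant transcripts of the table left out 1 was higher. Ins1 and Ins2 were left out of that run and could not be called in it, which does not account for the whole fall from 4. Of 32 cholesterol genes 13 were higher and 5 lower. The count of 5 was 2 with an acinar covariate and 2 with an acinar covariate and a replicate block. Among 25 genes of fatty acid synthesis 6 were higher and 11 lower. The count of 11 was 6 with an acinar covariate and 6 with an acinar covariate and a replicate block. Of 32 antioxidant and metallothionein genes 9 (28.1%) were higher and 13 (40.6%) lower. Sod1, of antioxidant defence, rose by 1.07, and the metallothionein Mt2A fell by 2.86. Of 21 clock genes 9 were lower and 3 higher. Per3 fell by 1.64 and Cry1 by 2.07, and the labels give no time of day. Of 28 hypoxia genes 7 (25%) were higher and 11 (39.3%) lower, where the shares among all symbols were 27.1% and 29.1%. Ndrg1 and Ankrd37 rose by 1.10 and 1.39, while Adm and Egln3 fell by 1.84 and 2.02.

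Compared with ageing in control islets, 2476 of 17360 symbols (14.3%) had different age effects. Of the 9764 symbols called in IUGR islets 4337 were called in control islets in the same direction and 114 in the opposite direction. In control islets 2995 symbols were higher and 2606 lower. The symbols with the smallest p of the difference towards a steeper fall included Timp2, Cd9, a tetraspanin, Parva, an adhesion adaptor, S100a16, Nxn and Tmem47. Cd9 measured 65.3, 61.4 and 55.8 scaled CPM at 2 weeks and 10.6, 10.4 and 9.51 at 10 weeks in IUGR islets, with log2 fold changes of -2.58 there and -0.68 in control islets (adjusted p of the difference 0.00166). Towards a larger rise they included Pnisr, Snrnp70, a protein of the U1 particle, Akap8l and Paxbp1. Pnisr measured 70.8, 72.1 and 69.4 and then 95.5, 106 and 96.2 in IUGR islets (log2 fold change 0.49 ± 0.07 SE) and its log2 fold change in control islets was -0.42. Rgs11, a regulator of G protein signalling, rose by 1.13 in IUGR islets with -0.67 in control islets. The count towards a larger rise moved with the control libraries used and with the acinar level in the model: it was 654 with all libraries, 1328 with the acinar level as a covariate, 1813 without 10-week control replicate 1 and 831 without the 3 control libraries with an acinar share above 40%. The counts towards a steeper fall were 1822, 2214, 2304 and 2401 in the same order.

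**Figure D4:**
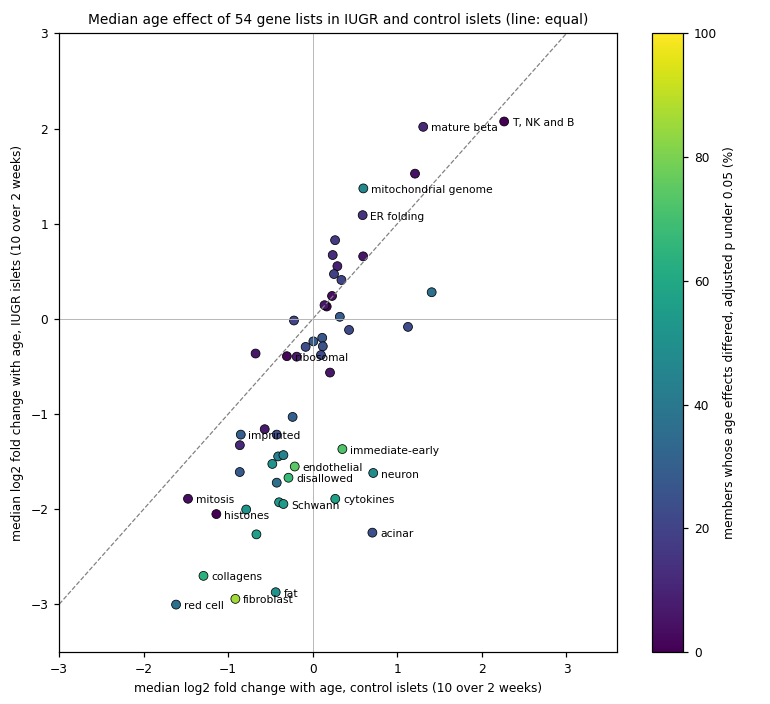
Median log2 fold change with age of each of the 54 gene lists in control islets (horizontal axis) and in IUGR islets (vertical axis), coloured by the percent of members whose age effects differed at an adjusted p under 0.05; the dashed line marks equal medians. The mitosis and T, NK and B lists lie near the line, and the fibroblast, endothelial, disallowed, immediate-early and cytokine lists lie below it.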

How the data were processed

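RNA of 12 islet libraries was sequenced and the authors deposited one table of raw read counts per transcript. TopHat2 2.0.9, bedtools, rn5 and mm9 appear in the submitters' processing notes with no role attached. The sources used here do not give the counting rule or its strand setting, so overlapping genes, antisense genes and close copies are uncertain. The deposited counts were tested with edgeR 4.0.16 in R 4.3.3: filterByExpr, TMM scaling, and a robust quasi-likelihood fit of 4 groups over all 12 libraries with 8 residual degrees of freedom. The contrasts were 10 against 2 weeks in IUGR islets, the same in control islets, and their difference. Benjamini-Hochberg adjustment ran over 20733 transcripts, and counts are over 17360 symbols, each by its transcript with the highest mean count. Fold changes are given with standard errors (SE). Libraries held 30396759 to 64201627 counts. Intervals of ratios are exact at 95%.

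Counts were simulated for 20733 transcripts, of which 200 with a mean CPM of at least 1 were changed. After the filter on the simulated counts 20239 were tested. In the data 56.2% of symbols were called, so the setting differs. On the simulated counts the age contrast in IUGR islets called 93% of 4-fold and 71% of 2-fold changes, with 12 false among 176 calls. The difference called 84% and 32%, with 2 false among 118 calls. Transcripts at lower levels were not changed, so these rates do not cover them. Between same-numbered 2-week and 10-week IUGR libraries the correlations of deviations from the group means were -0.068, -0.011 and -0.082. They cannot tell whether such libraries shared a litter or a day, and control libraries were not compared in this way. Alternatives were DESeq2 1.42.0, other scaling, filters and thresholds, a replicate block, the acinar level as a covariate, the 6 IUGR libraries alone and leaving out each library (ranges of an adjusted p leave out the 2-fold test); leaving out the 3 control libraries with an acinar share above 40% was chosen after seeing the data.

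The comparison and the gene lists were chosen with earlier results of these data known. Named genes are the 15 largest changes in each direction past the threshold at a mean log2 CPM of at least 1 without overlap of the groups, the 6 smallest p in each list, a set of known islet genes, and the 10 smallest p of the difference in each direction. Other genes, chosen after their values were seen, are Adm, Aspm, Atf3, Atf6, C1qa, C1qb, C1qc, Ccnb2, Cd163, Cdc20, Cdk1, Cftr, Chrnb4, Creld2, Csf1r, Cxcl3, Dcn, Ddit3, Dnajc3, Doc2b, Egln3, Ern1, Esm1, Flt1, Gipr, Higd1b, Hsp90b1, Hspa5, Il18, Irx2, Itga3, Kcnj11, Lum, Mcm6, Nog, Peg3, Pfkfb3, Ppargc1a, Ppp1r15a, Rgs16, Rgs5, Slc2a3, Synpo2, Wnt2, Wnt4, Xbp1 and Zwint. Promoters of unique symbols come from RefSeq on GRCr8 and were searched on both strands over 250 bases. G6pc2 and Acta2 were not analysed here, and Lin28b and Cdkn2a had too few counts to be tested.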

Additional observations from a re-analysis of the deposited data

Results flagged for a closer look

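Of 212 genes named in the text, 96 had age effects that differed between IUGR and control islets by edgeR's quasi-likelihood test of the difference at an adjusted p under 0.05. The difference was towards a steeper fall or smaller rise in IUGR islets for 80 and the other way for 16. Each value below is the log2 fold change with age in IUGR islets minus that in control islets. Many of the genes were named for their p in these data, so their number says nothing of the share over all genes, which was 14.3%. The acinar share of counts was 0.626% to 9.42% in the IUGR libraries and 14.0% to 47.7% in the control libraries. With an acinar covariate 16 of the 96 differences no longer passed, without the 3 control libraries with an acinar share above 40% 9, with the covariate and a replicate block 30, and when some single library was left out 27. The test for a change over 2-fold was left out of these counts. In the other alternatives at this threshold none turned direction, and 56 passed in every one. The 40 that did not were Adipoq, Ankrd37, Anln, C1qb, Ccnd2, Cd163, Cdkn1c, Chrnb4, Cpa3, Cry1, Ddc, Ero1lb, Fbn2, Fgfr1, Gipr, Hbb, Hk1, Igfbp2, Il6, Irf1, Lox, Marcksl1, Mdk, Mest, Mrc1, Mt-nd6, Myc, Pecam1, Penk, Pfkfb2, Pfkfb3, Rbpjl, Rest, Rfx6, Slc16a1, Slc2a3, Sod1, Sox10, Vegfa and Wnt5a.

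In genes that mature beta cells keep silent, or that serve glucose use in other cells, the differences were -2.08 for Ldha, -1.76 for Slc16a1, -1.38 for Hk1, -1.12 for Rest, -2.40 for Pfkfb3 and -2.09 for Slc2a3. Positive differences in endocrine genes were 1.48 for Gipr, 1.15 for Ero1lb, 1.03 for Ddc, 0.95 for Rfx6, 0.72 for Pfkfb2, 0.75 for Vegfa and 0.79 for Ccnd2. Each of these 7 no longer passed in at least 1 alternative, with a highest adjusted p of edgeR's test, or of DESeq2's, of 0.108 for Gipr, 0.0903 for Ero1lb, 0.0603 for Ddc, 0.198 for Rfx6, 0.156 for Pfkfb2, 0.199 for Vegfa and 0.074 for Ccnd2. Among other genes that endocrine or immature islet cells express the differences were -3.17 for Lepr, -2.36 for Penk, -2.46 for Doc2b, -3.94 for Dlk1 and -1.75 for Marcksl1. For growth and imprinted genes they were -4.61 for Igfbp6, -3.45 for Igfbp5, -2.85 for Igfbp2, -2.35 for Igfbp4, -1.56 for Grb10, -1.0 for Mest, -1.16 for Fgfr1 and -1.13 for Mdk. For cell cycle genes they were -2.06 for Cdkn1a, -1.53 for Cdkn1c, -0.70 for Anln and 1.56 for Zwint.

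In matrix and fibroblast genes the differences were -3.85 for Col1a1, -2.68 for Col3a1, -2.38 for Dcn, -2.25 for Lum, -1.79 for Pdgfra, -1.76 for Eln, -1.09 for Lox, -0.73 for Fbn2, -2.35 for Mmp2 and -2.17 for Timp2. Vessel and muscle genes had -1.97 for Cdh5, -2.01 for Cldn5, -1.45 for Pecam1, -1.60 for Plvap, -2.16 for Angpt2, -1.67 for Jag1, -2.18 for Apln, -1.97 for Aplnr, -2.0 for Tpm2 and -1.72 for Mylk. Nerve and glial genes had -6.03 for Nefl, -3.45 for Prph, -4.01 for Th, -5.66 for Chrnb4, -3.40 for S100b, -2.49 for Pmp22 and -2.16 for Sox10. In signalling genes they were -1.92 for Fzd1, -1.21 for Wnt5a, -2.56 for Bmp4, -1.36 for Id2, -2.53 for Id4, -6.90 for Nog and -2.83 for Epha3, where Nog had no count in the 10-week IUGR libraries, so its fitted value depends on the prior count.

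For stress and cytokine genes they were -2.21 for Myc, -2.99 for Ier3, -2.81 for Fosl2, -3.51 for Egr2, -2.85 for Atf3, -1.92 for Ppp1r15a, -3.71 for Il6, -4.16 for Cxcl1, -2.83 for Socs3 and -1.97 for Irf1. Macrophage and mast cell genes had -2.47 for Mrc1, -2.80 for Cd163, -1.59 for C1qb and -4.93 for Cpa3. In the acinar covariate fit these were -2.25 (adjusted p 0.0692) for Mrc1, -2.29 (adjusted p 0.171) for Cd163, -1.82 (adjusted p 0.0589) for C1qb and -2.37 (adjusted p 0.523) for Cpa3. Fat, red cell and acinar genes had -3.11 for Adipoq, -1.82 for Hbb and -3.10 for Rbpjl. In the acinar covariate fit they were -4.05 (adjusted p 0.0639) for Adipoq, -1.31 (adjusted p 0.154) for Hbb and -0.26 (adjusted p 0.708) for Rbpjl. The covariate is the mean level of the acinar genes, so this fit cannot test an acinar gene such as Rbpjl. Without the 3 acinar-rich control libraries they were -2.43 (adjusted p 0.0142) for Adipoq, -1.15 (adjusted p 0.172) for Hbb, -1.66 (adjusted p 0.126) for Rbpjl and -1.04 (adjusted p 0.345) for Cpa3. For metabolic, clock and mitochondrial genes the differences were -3.99 for Mt2A, -0.72 for Cry1, 0.48 for Sod1, 0.71 for Ankrd37 and 1.04 for Mt-nd6. The genes chosen by their p of the difference had -1.90 for Cd9, -1.48 for Parva, -2.20 for S100a16, -2.11 for Nxn and -1.64 for Tmem47 towards a steeper fall and 0.91 for Pnisr, 0.89 for Snrnp70, 1.08 for Akap8l, 0.75 for Paxbp1 and 1.79 for Rgs11 towards a larger rise.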

How the results depend on the processing

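For the age effect in IUGR islets, no symbol called in both the main test and an alternative changed direction, in any alternative run. Leaving out each library in turn, higher calls with age in IUGR islets ranged from 3949 to 5662 and lower calls from 4413 to 5225, and for the difference from control islets from 327 to 1813 (more positive) and from 1119 to 2304 (more negative). The count of more positive differences was 1089 in DESeq2 and 1328 under an acinar covariate. At an adjusted p under 0.01 there were 140 and 647 differences, more positive and more negative. In the test for over 2-fold there were 573 higher and 1941 lower calls with age and 4 and 139 differences. With a replicate block the counts were 4781 and 5099 with age and 696 and 1987 for the difference. The labels do not say what same-numbered libraries share beyond the number. With the acinar covariate Prss1 turned to 0.98, and the Xbp1 difference turned to 1.49 (1.38 with the block as well); it was 0.78 without the 3 control libraries with an acinar share above 40%. The covariate is the mean log2 CPM of the acinar genes, so acinar genes such as Prss1 were adjusted for their own list mean. The cause of the Xbp1 turn was not tested. Those 3 libraries left out, 5162 and 5677 symbols were called with age. Genes with under about 3 counts per library limit folds at 10 weeks, where libraries were shallower.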
